A study of Homo sapiens with 36 samples.

Results

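AP-1 is a transcription factor made of pairs of basic leucine zipper proteins, most often a member of the JUN family with a member of the FOS family. Signalling through the kinases MEK and ERK is known to raise the transcription of several of its genes within minutes of growth factor stimulation and to stabilise the proteins, and JUN and its partners bind AP-1 sites at their own genes. The 8 genes studied here were the JUN family (JUN, JUNB, JUND), the FOS family (FOS, FOSB, FOSL1, FOSL2) and ATF3, a stress-induced relative that pairs with JUN proteins. Each gene was represented by a fixed window of the hg19 genome. The windows were chr1:59200000-59300000 (JUN), chr19:12880000-12925000 (JUNB), chr19:18370000-18410000 (JUND), chr14:75700000-75790000 (FOS), chr19:45950000-46000000 (FOSB), chr11:65640000-65690000 (FOSL1), chr2:28580000-28670000 (FOSL2) and chr1:212700000-212830000 (ATF3). Every region listed for the histone mark H3K27ac, or for the AP-1 subunit JUNB itself, that touched a window was a member. This gave 22 to 37 H3K27ac regions in each of 6 count tables of 28239 to 57075 regions, and 111 of 146555 JUNB sites. The JUNB window overlapped none of the listed H3K27ac regions and is described by its 13 JUNB sites. Absence from these lists does not show that the mark was absent there, because regions may have been left out of them. The windows can also hold parts of neighbouring genes. In the RefSeq gene order of GRCh38.p14, the protein-coding neighbours were MYSM1 and FGGY for JUN, HOOK2 and PRDX2 for JUNB, IQCN and LSM4 for JUND, TMED10 and JDP2 for FOS, ERCC1 and RTN2 for FOSB, CCDC85B and C11orf68 for FOSL1, BABAM2 and PLB1 for FOSL2, and NENF and GARIN4 for ATF3. A region is therefore named by its window and position, and was not assigned to a promoter or enhancer.

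Chromatin immunoprecipitation with sequencing was done in SUM-229PE, a line grown from a pleural effusion of a breast cancer without hormone receptor or HER2 expression (triple-negative), kept at low passage per the labels. All groups came from this single line, sorted into EpCAM+ CD49f+ cells (POS) and EpCAM- CD49f- cells (NEG); the marker loci behind this sort were not analysed here. The H3K27ac groups were trametinib at 30 nM for 24 hours (3 POS and 2 NEG libraries) with DMSO as its control (3 POS, 2 NEG), day 14 of trametinib at 10 nM with day 0 (2 each for POS and NEG), and POSR2 and POSR1 (2 each), names that the labels do not explain. JUNB was profiled in DMSO-treated POS and NEG cells (2 libraries each). Trametinib inhibits MEK. No group was cultured for 14 days without drug, so drug and time cannot be told apart in the day 14 comparison. The total count over listed regions was 1861227 to 9212006 per H3K27ac library and 4884516 to 8947351 per JUNB library. Across regions, replicates correlated with r of 0.935 to 0.985, and the spread of every pair exceeded sampling noise. Whether replicates were separate cultures is not stated, and the p-values then describe only the variation among these libraries, which may be technical.

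The upstream sequences of the genes themselves were searched for AP-1 and related motifs, because AP-1 proteins are known to regulate several of these genes. RefSeq (GRCh38.p14) promoter windows matched 7 of the 8 symbols, with 2 windows for ATF3 and none for FOSL1. In the 250 bases before the start, the AP-1 motif TGANTCA was found in 0 of these 8 windows, against 6.57% of 35116 promoter windows of the same length. The 8-base form TGANNTCA was found in 3 (JUN, JUND and 1 of the ATF3 windows), against 10.1% of all windows. TGACG, the core of cyclic AMP response elements, was found in 6, against 21.2%. Both strands were searched, and TGACGTCA, a case of TGANNTCA that also holds TGACG on both strands, was found in the JUND window, against 1.65% of all windows. The 3 windows with TGANNTCA are shown 5′ to 3′ on the strand of the gene, with each match in capitals. They lie at chr1:58784048-58784297 (minus strand, JUN), chr19:18281623-18281872 (minus strand, JUND) and chr1:212565157-212565406 (plus strand, ATF3). The JUN match, TGACATCA, covers bases 67 to 60 before the start. The same 8 letters stand further from the start in the ATF3 window. A match is a description of letters and not evidence of binding, and absence in 250 bases says nothing about sites elsewhere.
JUN: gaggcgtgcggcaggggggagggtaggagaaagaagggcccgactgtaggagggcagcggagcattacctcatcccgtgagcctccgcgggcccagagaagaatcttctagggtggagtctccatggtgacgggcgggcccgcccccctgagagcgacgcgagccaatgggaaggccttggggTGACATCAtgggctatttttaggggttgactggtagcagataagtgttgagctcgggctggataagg
JUND: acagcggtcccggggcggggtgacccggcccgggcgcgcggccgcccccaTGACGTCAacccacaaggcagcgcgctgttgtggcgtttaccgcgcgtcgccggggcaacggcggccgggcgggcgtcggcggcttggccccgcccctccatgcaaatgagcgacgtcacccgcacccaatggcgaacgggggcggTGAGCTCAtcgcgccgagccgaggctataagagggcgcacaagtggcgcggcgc
ATF3: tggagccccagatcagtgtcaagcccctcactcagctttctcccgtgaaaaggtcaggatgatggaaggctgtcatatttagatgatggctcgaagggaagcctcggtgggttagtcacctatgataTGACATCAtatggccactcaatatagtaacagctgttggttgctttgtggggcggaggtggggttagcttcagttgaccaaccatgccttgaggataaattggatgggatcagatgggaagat

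Among regions listed for POS against NEG in untreated cells, the FOS, FOSL2 and ATF3 windows carried more H3K27ac in POS, and the FOSB and FOSL1 windows less. This list did not hold every region of the windows. Regions listed for trametinib against DMSO in POS, but not here, include chr2:28614337-28615338 (FOSL2), chr11:65666013-65667014 (FOSL1) and chr14:75765177-75766178 (FOS). In JUN they include chr1:59244794-59245795 and chr1:59250681-59251682. POS and NEG could not be compared at these regions in the DMSO libraries. In FOS, 4 of 5 regions were higher in POS and 0 lower, in FOSL2 4 of 7 and 0, and in ATF3 3 of 6 and 0. In FOSB 4 of 6 regions were lower in POS and 0 higher, and in FOSL1 all 3 listed regions were lower. JUN was mixed, with 2 regions higher and 2 lower of 6, and 0 of 2 JUND regions passed the test (0 at an unadjusted p below 0.05, and 0 with DESeq2). The windows together gave 13 regions higher and 9 lower of 35. Differences were called at an adjusted p below 0.05 with edgeR's quasi-likelihood test and Benjamini-Hochberg adjustment over all regions of the table. Of all 57023 regions tested, 76.5% were called (38.6% higher and 38.0% lower), so the 62.9% of members called was not above the level of the table. The median log2 fold change was 0.00 over the members and -0.04 over all regions. Scaling by total counts, which lowers the median of all regions by 0.16, gave 12 higher and 14 lower.

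FOSL2 encodes FRA-2, a FOS family protein without a transactivation domain of the FOS type. Its strongest region, chr2:28600689-28601690, had 128.6, 89.9 and 107 CPM (counts scaled to library size with edgeR's TMM factors) in the POS libraries, against 2.67 and 2.84 CPM in the NEG libraries. The groups were far apart, with a log2 fold change of 5.30 ± 0.30 (SE; edgeR adjusted p = 2.8e-18). A second FOSL2 region, chr2:28658923-28659924, had 19.0, 15.7 and 17.8 CPM in POS and 1.60 and 1.77 CPM in NEG (3.37 ± 0.27). Between them, chr2:28631543-28632544 had 51.2, 36.7 and 41.4 CPM in POS and 51.0 and 43.8 CPM in NEG, and these values overlapped. The gain in POS was therefore not shared by the whole FOSL2 window. The region chr2:28614337-28615338 had 119, 73.9 and 94.0 CPM in the POS DMSO libraries of the trametinib comparison. It was not listed for POS against NEG.

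FOS, an immediate early gene, had its strongest region at chr14:75721174-75722175, with 85.1, 55.1 and 70.1 CPM in POS against 4.45 and 4.26 CPM in NEG. The log2 fold change was 4.01 ± 0.26 (edgeR adjusted p = 1.3e-16). Close by, chr14:75725096-75726097 had 42.8, 38.4 and 37.9 CPM in POS and 48.9 and 49.1 CPM in NEG, and its difference of -0.30 ± 0.18 did not pass the test (adjusted p = 0.12). The difference was thus not uniform along FOS. At chr14:75701079-75702080 the POS libraries had 53.2, 40.1 and 45.5 CPM and the NEG libraries 6.76 and 7.27 CPM (2.72 ± 0.21). In the ATF3 window, chr1:212769283-212770284 had 58.1, 46.1 and 54.4 CPM in POS and 9.78 and 10.5 CPM in NEG (2.39 ± 0.21, adjusted p = 4.1e-13). All 3 POS values lay above both NEG values at each called region of these windows.

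FOSL1 encodes FRA-1, a FOS family protein that ERK stabilises and that is known for high levels in mesenchymal and triple-negative breast cancer cells. The strongest listed region of the FOSL1 window, chr11:65683162-65684163, had 48.7, 30.9 and 34.5 CPM in POS against 119.3 and 128 CPM in NEG. The log2 fold change was -1.69 ± 0.20 (edgeR adjusted p = 1.7e-09). Whether this region belongs to FOSL1 or to a neighbour such as C11orf68 was not determined. The region chr11:65666013-65667014 had 46.9, 28.0 and 37.1 CPM in the POS DMSO libraries of the trametinib comparison. It was not listed for POS against NEG. The largest FOSL1 difference was at a weak region, chr11:65648220-65649221, with 0.633, 1.46 and 0.636 CPM in POS and 5.69 and 6.56 CPM in NEG (-2.80 ± 0.52). In the FOSB window, whose gene encodes another inducible FOS protein, chr19:45981604-45982605 had 40.01, 33.0 and 38.5 CPM in POS and 97.3 and 90.8 CPM in NEG (-1.33 ± 0.19). At these named FOSL1 and FOSB regions the mark was higher in NEG, with no overlap between the groups. The FOSB regions chr19:45953442-45954443 (-0.01 ± 0.17) and chr19:45958932-45959933 (-0.23 ± 0.17) did not pass the test, and their values overlapped. At chr1:59228302-59229303 in the JUN window the POS libraries had 69.6, 54.9 and 60.8 CPM and the NEG libraries 117 and 118 CPM (-0.92 ± 0.20, adjusted p = 7.3e-05). Within the same window, chr1:59204503-59205504 went the other way, with 21.4, 17.1 and 23.9 CPM in POS and 6.05 and 4.61 CPM in NEG (1.97 ± 0.21). The strongest JUN region, chr1:59281811-59282812, did not pass the test (-0.37 ± 0.21, adjusted p = 0.11). JUND, a broadly expressed member, had 37.9, 25.0 and 32.8 CPM in POS and 38.1 and 42.7 CPM in NEG at its strongest region.

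**Figure D1:**
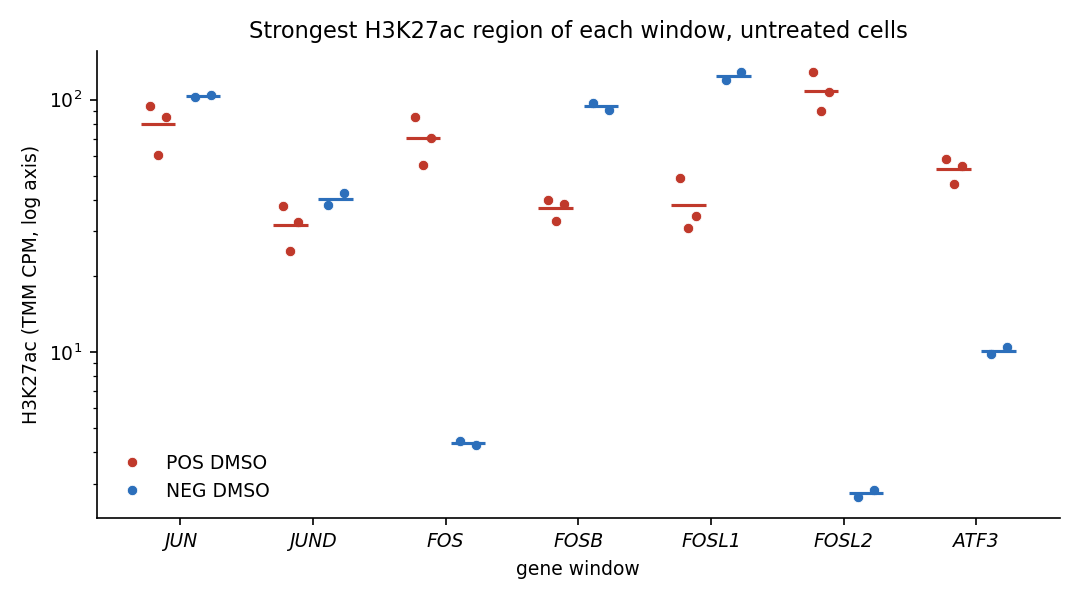
H3K27ac level (TMM-scaled CPM, log axis) of the strongest listed region in each window, in DMSO-treated POS (red, 3 libraries) and NEG (blue, 2 libraries) cells. Points are libraries and bars are group means. POS lies above NEG for FOS, FOSL2 (89.9 to 128.6 against 2.67 and 2.84 CPM) and ATF3, and below it for FOSB and FOSL1.

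The day 0 libraries gave the same contrast in other libraries, in a fit over regions matched between the day 14 tables. Of 16 matched member regions, 4 were higher in POS and 7 lower (72.8% of all 15794 matched regions were called). All 3 FOS regions were higher in POS, with 174 and 141 CPM in POS and 11.2 and 6.74 CPM in NEG at chr14:75721138-75722139 (4.10 ± 0.18; edgeR adjusted p = 1.1e-116). In FOSB 3 of 4 regions were lower in POS, led by chr19:45981566-45982567 at -1.23 ± 0.12. The JUN region chr1:59228380-59229381 was also lower in POS (-1.26 ± 0.11), as was the FOSL1 region chr11:65640921-65641922 (-1.18 ± 0.26). The strong FOSL2 region had no matched partner in the NEG table and could not be compared at day 0.

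JUNB, a JUN family protein that is often a weaker activator than JUN, had listed sites in every window in untreated cells. Among 110 tested member sites, POS was higher at 28 and lower at 27 (57.9% of all 141580 sites were called). The site with the highest level was in the FOSB window at chr19:45959069-45959270, with 51.5 and 39.9 CPM in POS and 67.1 and 78.0 CPM in NEG. Its difference of -0.66 ± 0.23 passed the test (edgeR adjusted p = 0.0075) but not without NEG replicate 2 (-0.54, adjusted p = 0.15). Next came chr1:59221275-59221476 in JUN, with 37.7 and 41.6 CPM in POS and 48.0 and 68.3 CPM in NEG, chr2:28668844-28669045 in FOSL2 and chr11:65683258-65683459 in FOSL1. At the JUN site the call (-0.55 ± 0.23, adjusted p = 0.028) was lost without NEG replicate 2 (adjusted p = 0.49) and without POS replicate 1 (adjusted p = 0.11). The largest gains in POS were at weaker sites of the FOSL2, ATF3 and JUN windows. The FOSL2 site chr2:28659614-28659815 had 6.51 and 8.77 CPM in POS and 0.47 and 0.52 CPM in NEG (3.88 ± 0.47, adjusted p = 3.6e-15). The ATF3 site chr1:212829418-212829619 had 9.07 and 7.25 CPM in POS and 0.354 and 1.04 CPM in NEG (3.66 ± 0.44), and the JUN site chr1:59290791-59290992 had 7.21 and 6.67 CPM in POS and 0.708 and 0.522 CPM in NEG (3.43 ± 0.46). In the FOS window the largest gain was at chr14:75721241-75721442, with 17.8 and 18.9 CPM in POS and 1.89 and 2.96 CPM in NEG (2.95 ± 0.31). POS lay above NEG without overlap at each of these sites.

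By window, JUNB sites were more often higher in POS in FOS (7 higher, 0 lower of 15) and ATF3 (5 and 1 of 9), and more often lower in FOSB (2 and 9 of 16) and FOSL1 (1 and 6 of 10). JUN had 8 higher and 4 lower of 23 sites, FOSL2 4 and 4 of 16, and JUND 1 and 0 of 8. At the JUNB gene itself, whose product was the protein precipitated, 3 of 13 sites were lower in POS and 0 higher. The strongest of these, chr19:12893816-12894017, had 5.58 and 5.34 CPM in POS and 11.2 and 12.2 CPM in NEG (-1.09 ± 0.28; edgeR adjusted p = 0.00035). All 13 sites were modest, at mean levels of 1.73 to 8.58 CPM, against 59.1 CPM at the strongest FOSB site. In the JUN window, chr1:59230008-59230209 had 3.02 and 4.195 CPM in POS and 23.7 and 20.9 CPM in NEG (-2.67 ± 0.29, adjusted p = 5.7e-19).

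A JUNB site lay inside 34 of the 35 member H3K27ac regions of this comparison (97.1%), against 77.7% of the whole table. Read the other way, 41 of the 111 sites lay inside a listed H3K27ac region. With the strongest site taken for each of the 34 regions, log2 fold changes of the mark and of JUNB had a Pearson r of 0.862 across regions, which share libraries and are not replicates. Over all 43997 regions of the table that hold a tested site, paired in the same way, r was 0.870. Both measures passed the test at 16 member regions (47.1%), against 59.4% of all such regions. Of these, 9 were higher in POS for both, 6 lower for both, and 1 went opposite ways, so that 93.8% had the same direction, against 96.5% over the table. The relation at the members was thus near that of the whole table. The exception, chr1:59288528-59289529 in the JUN window, had less H3K27ac in POS (-0.44 ± 0.17) over a site with more JUNB (0.65 ± 0.25). At the FOSL2 region with the largest H3K27ac difference the JUNB site differed by 3.30 ± 0.39.

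**Figure D2:**
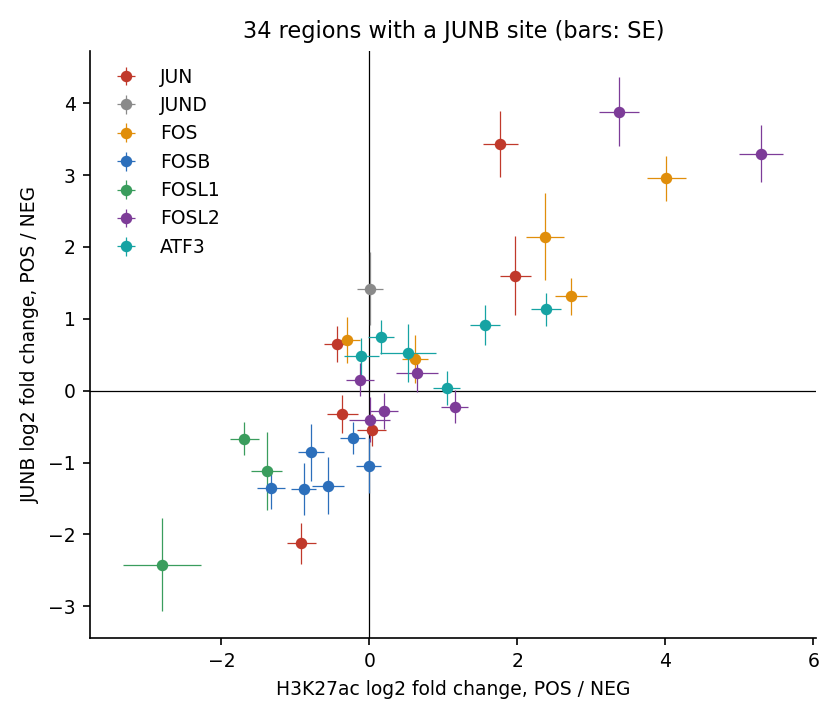
JUNB log2 fold change (POS over NEG, vertical) against H3K27ac log2 fold change (POS over NEG, horizontal) for the 34 member regions that hold a JUNB site, coloured by window; bars are SE. The highest FOS, FOSL2 and ATF3 regions lie at the upper right and the called FOSB and FOSL1 regions at the lower left (r = 0.862).

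After trametinib, H3K27ac was lower at most listed regions of the JUN window in both subpopulations. Which of these regions lie at the gene itself was not determined. JUN is a transcriptional activator whose gene is known to be induced by its own protein, and this was not tested here. After 24 hours in POS, 6 of 8 JUN regions were lower and 1 higher, and in NEG all 5 were lower. At day 14 in POS, 5 of 6 were lower and 1 higher, and in NEG 5 of 6 were lower and 0 higher. Some of the POS falls at day 14 depended on the scaling, as given below. Over all windows the counts were 7 higher and 13 lower of 36 regions in POS at 24 hours (52.7% of the 50345 regions tested were called, 26.7% higher and 26.0% lower), and 5 higher and 9 lower of 26 in NEG at 24 hours (36.5% called, 17.2% higher and 19.3% lower). They were 10 higher and 11 lower of 29 in POS at day 14 (77.8% called, 39.5% higher and 38.2% lower) and 7 and 7 of 22 in NEG at day 14 (48.6% called, 24.8% higher and 23.8% lower). The day 14 count in NEG was 9 (6 higher and 3 lower) without NEG day 14 replicate 2. Median log2 fold changes of the members were -0.13, -0.17, -0.18 and 0.09 in this order, against 0.02, 0.04, 0.03 and 0.00 over all regions. With edgeR the share of members called was 55.6% in POS and 53.8% in NEG at 24 hours, and 72.4% in POS and 63.6% in NEG at day 14. This was above that of the table in NEG at both times, near it in POS at 24 hours and below it in POS at day 14. DESeq2 called fewer members in NEG at both times, as given at the end. Its share over all regions was not set beside these, so the excess in NEG is shown for edgeR only. The 4 comparisons share no libraries.

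The region that was lower in POS and NEG cells at both times by the most was chr1:59228302-59229303 in the JUN window. In POS it had 23.1, 19.0 and 18.6 CPM after 24 hours of trametinib, against 69.0, 54.0 and 58.9 CPM in DMSO (-1.59 ± 0.16; edgeR adjusted p = 2.0e-15). In NEG it had 37.8 and 30.5 CPM after 24 hours of trametinib, against 130.3 and 132.7 CPM in DMSO (-1.94 ± 0.11, adjusted p = 6.1e-65). The treated libraries lay below the controls with wide gaps in both. At day 14 the matched region had 2.40 and 4.31 CPM in POS, against 57.3 and 46.4 CPM at day 0 (-3.97 ± 0.20, adjusted p = 5.1e-42). In NEG it had 53.2 and 38.9 CPM at day 14, against 177 and 160.5 CPM at day 0 (-1.89 ± 0.12, adjusted p = 1.5e-22). POS cells at day 14 thus kept a far smaller share of the mark there than NEG cells. In a joint fit the response was -1.90 in NEG and -3.47 in POS, and their difference (NEG minus POS) was 1.57 ± 0.27 (adjusted p = 5.4e-08). At 24 hours that difference was -0.42 ± 0.19 (adjusted p = 0.092). The region beside it, chr1:59229545-59230546, had 51.1 and 47.1 CPM at day 14 in NEG, against 203 and 167 CPM at day 0 (-1.93 ± 0.12). The strongest JUN region in POS, chr1:59281278-59282279, fell less, with 53.0, 40.7 and 55.1 CPM after 24 hours of trametinib and 121.6, 74.8 and 94.6 CPM in DMSO (-0.97 ± 0.17).

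This joint fit scales the libraries of both subpopulations over regions matched between their tables. On that scale the day 14 responses of POS lay 0.51 higher (median over 16 members) than in the POS table alone, while those of NEG moved by -0.01, and 4 of the 16 POS responses changed sign. These were at JUND, FOS (2 regions) and FOSB, so small day 14 changes in POS depend on the regions used for scaling. The fall at the strongest JUN region in POS at day 14, chr1:59281310-59282311, also shrank. In the POS table alone it had 67.4 and 69.0 CPM at day 14 and 116 and 97.5 CPM at day 0. On the joint scale these were 174 and 178 CPM at day 14 and 208 and 181 CPM at day 0. In the joint fits the responses of NEG and POS differed at 5 members higher in NEG and 3 lower of 16 at day 14 (62.6% of the 15794 matched regions were called, 31.9% higher and 30.7% lower). With total-count scaling, which raises the median of all differences by 0.32, they were 7 and 2. At 24 hours the shifts were 0.12 for POS and 0.06 for NEG. There 2 of 14 differences were higher in NEG and 0 lower (25.6% of 18186 called), against a count of 1 without NEG trametinib replicate 1 or NEG DMSO replicate 1.

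Of 11 regions that could be matched through all 4 trametinib tables, 3 were lower in all 4 and 0 were higher in all 4. Of all 10238 regions matched in the same way, 12.1% were lower in all 4 and 3.27% higher in all 4. All 3 members lie in the JUN window. Besides the region above they were chr1:59221072-59222073, at -1.27, -0.77, -1.58 and -0.56 (POS 24 hours, NEG 24 hours, POS day 14, NEG day 14), and chr1:59288842-59289843, at -0.83, -0.64, -0.53 and -0.54. At chr1:59288842-59289843 the day 14 fall in POS depends on the scaling, and the response of its counterpart in the joint fit was -0.02 ± 0.20. The fall did not cover the whole JUN window. At chr1:59244794-59245795 the POS libraries had 47.8, 45.8 and 47.8 CPM after 24 hours of trametinib and 32.1, 22.1 and 26.96 CPM in DMSO (0.79 ± 0.15; edgeR adjusted p = 5.1e-06), and this region holds no listed JUNB site. At chr1:59250681-59251682 they had 61.3, 47.7 and 61.3 CPM with drug and 64.5, 46.5 and 53.3 CPM in DMSO (0.05 ± 0.16), and its day 14 counterpart was higher by 0.38 ± 0.13. Neither of these places was listed for trametinib in NEG, so their response there is not known.

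**Figure D3:**
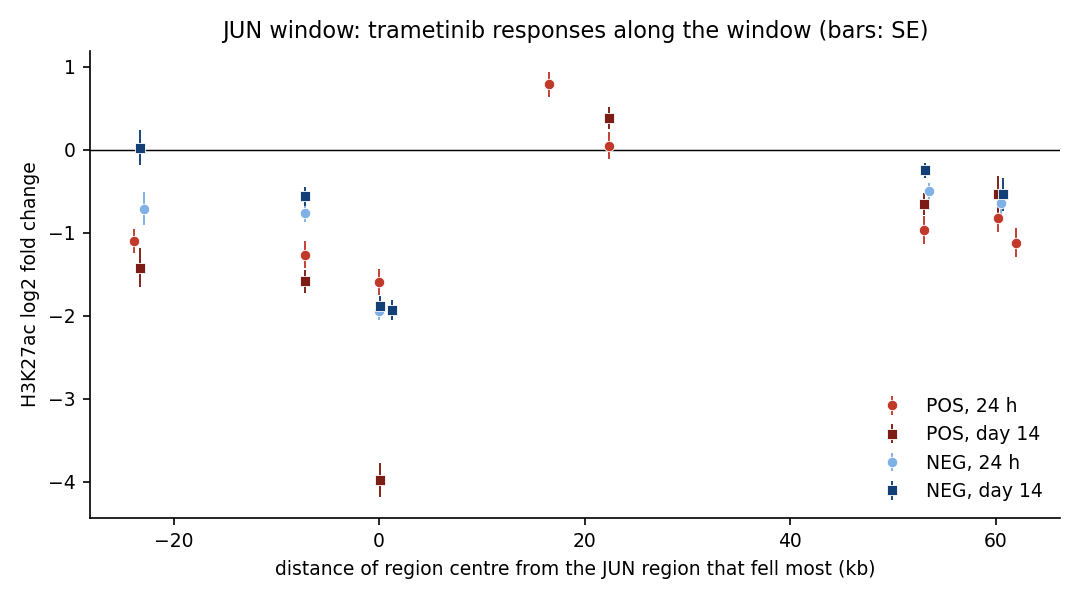
H3K27ac log2 fold change (drug over control, SE bars) of each listed region of the JUN window against the distance of its centre, in kb, from the centre of the region that fell most; circles are 24 hours and squares day 14, reds POS and blues NEG. All 4 comparisons are below 0 at distance 0, POS at day 14 lowest at -3.97; the values above 0 are those of POS at the 2 positions next to the right of 0 (0.79, 0.05 and 0.38) and 1 NEG region at day 14 that was not called (0.02).

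FOS regions rose in NEG and were mixed in POS. In NEG, 3 of 4 FOS regions were higher and 0 lower after 24 hours, and all 6 were higher at day 14. In POS, 1 was higher and 2 lower of 5 at 24 hours, and 2 higher and 1 lower of 4 at day 14. The NEG region with the highest level, chr14:75725095-75726096, had 94.8 and 94.3 CPM after 24 hours of trametinib and 54.6 and 55.2 CPM in DMSO (0.78 ± 0.11; edgeR adjusted p = 3.8e-12). At chr14:75760195-75761196 the POS libraries had 18.9, 21.2 and 20.6 CPM with drug and 31.9, 23.2 and 30.5 CPM in DMSO (-0.51 ± 0.14). These 3 treated values lay below the DMSO values. The overlapping NEG region, chr14:75760212-75761213, had 37.6 and 29.7 CPM with drug and 21.8 and 22.5 CPM in DMSO (0.60 ± 0.14). The difference between these responses, NEG minus POS, was 1.05 ± 0.19 (adjusted p = 1.2e-05). At day 14 it was 0.45 ± 0.22 (adjusted p = 0.060). The POS fall at day 14 (-0.44 ± 0.15) was 0.07 in the joint fit.

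The FOS region that marked POS cells before treatment, chr14:75721174-75722175, had 46.8, 40.2 and 45.3 CPM in POS after 24 hours of trametinib and 84.3, 53.6 and 68.7 CPM in DMSO (-0.65 ± 0.16; edgeR adjusted p = 0.00042). At day 14 it had 84.7 and 89.4 CPM in POS, against 97.4 and 76.0 CPM at day 0, and these values overlapped. In NEG the same place had 17.9 and 19.7 CPM at day 14 and 8.23 and 5.005 CPM at day 0 (1.46 ± 0.30, adjusted p = 3.0e-05). A region at the far side of the window, chr14:75765177-75766178, rose in POS with both treatments. It had 58.2, 60.3 and 63.9 CPM after 24 hours, against 34.1, 26.8 and 29.3 CPM in DMSO (1.01 ± 0.15), and its counterpart had 61.8 and 65.3 CPM at day 14, against 31.4 and 29.9 CPM at day 0 (1.04 ± 0.14). The counterpart also rose in NEG at day 14, by 1.25 ± 0.23. The largest day 14 gains of the window were elsewhere. In POS it was at chr14:75709431-75710432, with 33.8 and 30.6 CPM at day 14 and 11.6 and 11.1 CPM at day 0 (1.497 ± 0.17). In NEG it was at chr14:75700693-75701694, with 22.1 and 24.0 CPM at day 14 and 8.23 and 7.70 CPM at day 0 (1.52 ± 0.26).

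In the FOSL1 window H3K27ac fell in POS, at 2 of 3 regions after 24 hours and at both listed regions by day 14. Of all regions tested in POS, 26.0% were lower at 24 hours and 38.2% at day 14. At chr11:65683162-65684163 the libraries had 15.7, 13.5 and 16.8 CPM after 24 hours of trametinib and 48.3, 30.1 and 33.8 CPM in DMSO (-1.29 ± 0.15; edgeR adjusted p = 2.7e-12). At chr11:65666013-65667014 they had 20.8, 21.2 and 18.4 CPM with drug and 46.9, 28.0 and 37.1 CPM in DMSO (-0.92 ± 0.15). Both fell below every DMSO library. The day 14 counterpart of the second had 6.83 and 6.27 CPM, against 50.9 and 43.1 CPM at day 0 (-2.85 ± 0.18, adjusted p = 1.8e-33). Neither region was listed in the NEG trametinib tables, so their responses in NEG could not be compared. The first carried the mark in NEG, with 119.3 and 128 CPM in the NEG DMSO libraries of the POS against NEG comparison. A weaker region, chr11:65640922-65641923, was lower in NEG at 24 hours (12.1 and 11.7 CPM with drug, 17.1 and 17.5 CPM in DMSO, -0.54 ± 0.18), a call lost without either replicate 2. At day 14 it had 19.0 and 17.3 CPM in NEG, against 18.2 and 19.6 CPM at day 0. In POS its level was low, with 3.14 and 2.55 CPM at day 14 and 5.53 and 7.18 CPM at day 0. On the joint scale these were 8.11 and 6.59 CPM at day 14 and 9.90 and 13.3 CPM at day 0, a smaller fall.

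FOSB, like FOS an immediate early gene, held regions that moved in different directions. At chr19:45958954-45959955, where the strongest JUNB site lies, POS had 13.6, 10.1 and 14.4 CPM after 24 hours of trametinib and 25.6, 22.6 and 27.4 CPM in DMSO (-0.98 ± 0.14; edgeR adjusted p = 5.0e-09). At day 14 the counterpart had 10.7 and 10.0 CPM in POS, against 29.1 and 22.4 CPM at day 0 (-1.35 ± 0.18). In NEG the matched regions did not pass the test at 24 hours (-0.27 ± 0.14) or at day 14 (0.18 ± 0.15). The responses differed by 0.64 ± 0.19 at 24 hours (NEG minus POS, adjusted p = 0.0090) and by 1.01 ± 0.24 at day 14 (adjusted p = 5.5e-05), where the joint fit gave 0.17 in NEG and -0.84 in POS. Without NEG trametinib replicate 1 or NEG DMSO replicate 1 the 24 hour difference was 0.56 and 0.55, with adjusted p of 0.072 and 0.069. The strongest FOSB region, chr19:45981566-45982567, went the other way at day 14. It had 55.7 and 56.5 CPM in POS at day 14 and 40.9 and 41.9 CPM at day 0 (0.44 ± 0.14). In NEG it had 108 and 105 CPM at day 14 and 127 and 134 CPM at day 0 (-0.29 ± 0.10). Each of these calls was lost without either day 14 library of its subpopulation (adjusted p of 0.053 and 0.063 in POS, 0.074 and 0.16 in NEG). In the joint fit these responses were -0.30 in NEG and 0.95 in POS, and their difference, NEG minus POS, was -1.25 ± 0.17 (adjusted p = 8.0e-13).

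The FOSL2 and ATF3 windows held regions that rose with trametinib in POS. At 24 hours these were 2 of 7 and 3 of 6, against 1 and 0 that fell. At day 14 they were 2 of 5 and 3 of 6, against 0 and 2 that fell. Of all regions tested in POS, 26.7% were higher at 24 hours and 39.5% at day 14, so the FOSL2 counts were near the general level. The 24 hour call at the leading ATF3 region, chr1:212769258-212770259, was sensitive to single libraries. It was lost without POS trametinib replicate 1 or 3 or DMSO replicate 3 (edgeR adjusted p of 0.065, 0.058 and 0.094). The leading FOSL2 region had 119.9, 107 and 134 CPM in POS after 24 hours of trametinib and 128, 89.4 and 108 CPM in DMSO, and these values overlapped. At day 14 its counterpart had 216 and 222 CPM, against 174 and 133 CPM at day 0 (0.50 ± 0.14; edgeR adjusted p = 0.00052). The day 14 difference had an adjusted p of 0.13 and 0.16 without either day 14 library. Toward the other end of the window, chr2:28659717-28660718 had 120.3 and 128 CPM at day 14 and 48.0 and 41.0 CPM at day 0 (1.46 ± 0.14, adjusted p = 2.4e-19), and its 24 hour counterpart was higher by 0.86 ± 0.16. In NEG the leading region of the window, chr2:28631543-28632544, had 37.6 and 40.4 CPM with 24 hours of drug and 57.0 and 49.2 CPM in DMSO (-0.45 ± 0.12). Without NEG DMSO replicate 1 this was -0.34 (adjusted p = 0.0845).

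In the ATF3 window, chr1:212734560-212735561 had 38.9, 44.9 and 39.1 CPM in POS after 24 hours of trametinib, against 22.1, 16.7 and 19.3 CPM in DMSO (1.06 ± 0.15; edgeR adjusted p = 1.3e-09). At day 14 its counterpart had 40.8 and 39.6 CPM, against 20.5 and 15.3 CPM at day 0 (1.13 ± 0.15). In NEG 0 of 3 ATF3 regions passed the edgeR test at 24 hours (0 at an unadjusted p below 0.05, and 0 with DESeq2), and 1 of 2 was higher at day 14. That region, chr1:212739898-212740899, had 15.8 and 23.1 CPM at day 14 and 13.05 and 13.1 CPM at day 0 (0.58 ± 0.25, adjusted p = 0.045). Its call was lost without NEG day 14 replicate 2 (0.27, adjusted p = 0.57) and without either NEG day 0 library (adjusted p = 0.12 and 0.081). In the JUND window calls were few and sensitive to single libraries. In NEG its region chr19:18390895-18391896 had 81.6 and 76.6 CPM after 24 hours of trametinib and 49.5 and 63.9 CPM in DMSO (0.48 ± 0.11), and the call was lost without NEG DMSO replicate 1 (0.31, adjusted p = 0.087). At chr19:18402605-18403606 NEG had 20.01 and 21.6 CPM at day 14 and 27.8 and 32.3 CPM at day 0 (-0.51 ± 0.19, adjusted p = 0.022), a call lost without either day 14 library or day 0 replicate 2.

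**Figure D4:**
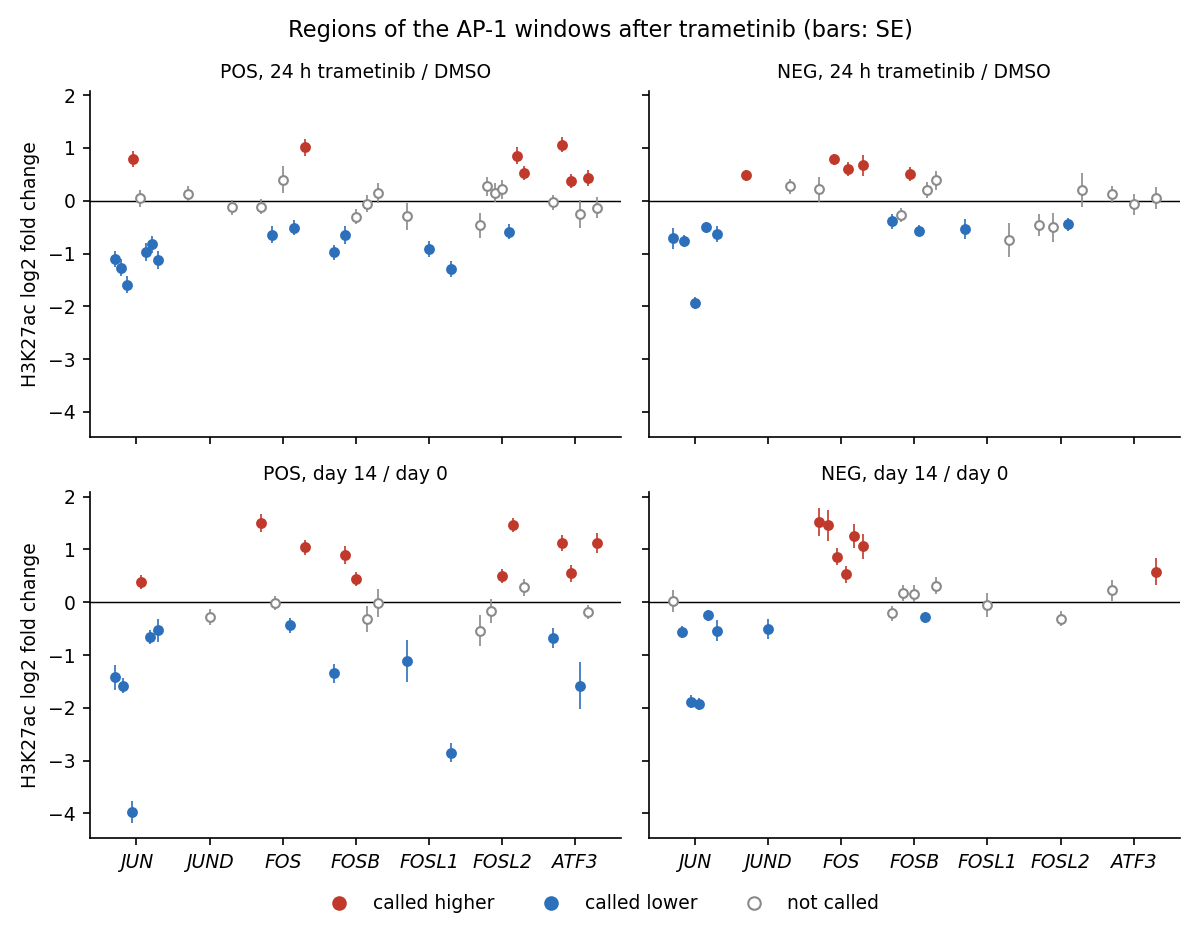
H3K27ac log2 fold change (drug over control, SE bars) of every listed member region, by window and in genome order within it, for the 4 trametinib comparisons; red is called higher, blue called lower and open grey not called. JUN regions are mostly below 0 in every panel, FOS regions are above 0 in NEG, and the lowest points are JUN (-3.97) and FOSL1 (-2.85) in POS at day 14.

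The leading regions of the windows were compared over the 4 trametinib comparisons by the mean absolute difference of their log2 fold changes. The closest pairs were FOSB and FOSL2 (0.16), JUND and ATF3 (0.37), and JUN and FOSB (0.47). The least alike were FOS and FOSL1 (1.34). Each of these rests on 4 values, and the leading region can be another one in another table.

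POSR2 and POSR1 pooled as 1 group (4 libraries) differed from POS DMSO (3 libraries) at 10 member regions higher and 4 lower of 37, or 37.8% of them, where 36.1% of the 53240 regions tested were called. POSR2 and POSR1 themselves differed at 40.5% of all regions tested. The 4 libraries are therefore not replicates of 1 condition. The median log2 fold change was 0.32 over the members and 0.01 over all regions. FOSB had 4 of 5 regions higher, FOSL2 3 higher and 1 lower of 6, ATF3 2 of 7 higher, JUND 1 of 2 higher, and JUN 3 of 8 lower. The call at the leading FOSL2 region, chr2:28600689-28601690, was lost with a replicate block. It was also lost without either POSR1 library, and without POS DMSO replicate 2 or 3. Among the 6 FOS and 3 FOSL1 regions 0 passed the edgeR test, with 1 of each at an unadjusted p below 0.05 and 1 of each called by DESeq2. The strongest FOS region had 81.5 and 81.4 CPM in POSR2, 110.4 and 115 CPM in POSR1 and 80.9, 51.8 and 66.8 CPM in POS (0.54 ± 0.20, adjusted p = 0.055). This comparison shares the POS DMSO libraries with those of POS against NEG and of 24 hours in POS, so values are only set side by side. The JUN region chr1:59228339-59229340 had 16.5 and 19.97 CPM in POSR2, 32.9 and 37.2 CPM in POSR1 and 66.3, 52.2 and 57.2 CPM in POS. All POSR values lay below all POS values (-1.14 ± 0.26; edgeR adjusted p = 0.0081), and POSR2 lay below POSR1 (-0.95 ± 0.19, adjusted p = 2.9e-06).

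The largest POSR gain was at chr1:212780969-212781970 in the ATF3 window, with 23.7 and 22.9 CPM in POSR2, 10.8 and 10.6 CPM in POSR1 and 4.58, 5.69 and 4.84 CPM in POS (1.76 ± 0.34; edgeR adjusted p = 0.0037). The 3 groups did not overlap, and POSR2 exceeded POSR1 by 1.119 ± 0.16 (adjusted p = 6.1e-11). At chr19:18403060-18404061 in the JUND window POSR2 had 36.9 and 35.1 CPM, POSR1 25.0 and 24.7 CPM and POS 12.3, 11.8 and 12.1 CPM (1.33 ± 0.19, adjusted p = 0.00084). In FOSB, chr19:45988485-45989486 had 17.2 and 16.4 CPM in POSR2, 19.1 and 18.5 CPM in POSR1 and 9.52, 8.44 and 10.6 CPM in POS (0.90 ± 0.16), and POSR2 and POSR1 did not differ by the test (-0.16 ± 0.15). In FOSL2, chr2:28593146-28594147 had 15.7 and 20.1 CPM in POSR2, 14.1 and 16.5 CPM in POSR1 and 7.35, 7.85 and 7.57 CPM in POS (1.13 ± 0.18).

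Between POSR2 and POSR1, 8 member regions were higher in POSR2 and 4 lower of 37 (40.5% of 53524 regions were called). Without POSR1 replicate 2 or POSR2 replicate 2 the count fell to 7 (5 higher and 2 lower in each case). The FOS region chr14:75765180-75766181, which rose with trametinib in POS, separated them most, with 42.4 and 41.1 CPM in POSR2, 17.8 and 16.6 CPM in POSR1 and 32.8, 26.1 and 28.6 CPM in POS. POSR2 exceeded POSR1 by 1.28 ± 0.17 (edgeR adjusted p = 6.4e-13). The pooled POSR difference from POS there was 0.01 ± 0.33, with POSR2 above and POSR1 below the 3 POS values. At chr2:28589458-28590459 in FOSL2 the order was reversed, with 10.9 and 8.41 CPM in POSR2 and 17.3 and 20.4 CPM in POSR1 (-0.96 ± 0.17, adjusted p = 1.4e-07), against 5.66, 7.27 and 6.81 CPM in POS.

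**Figure D5:**
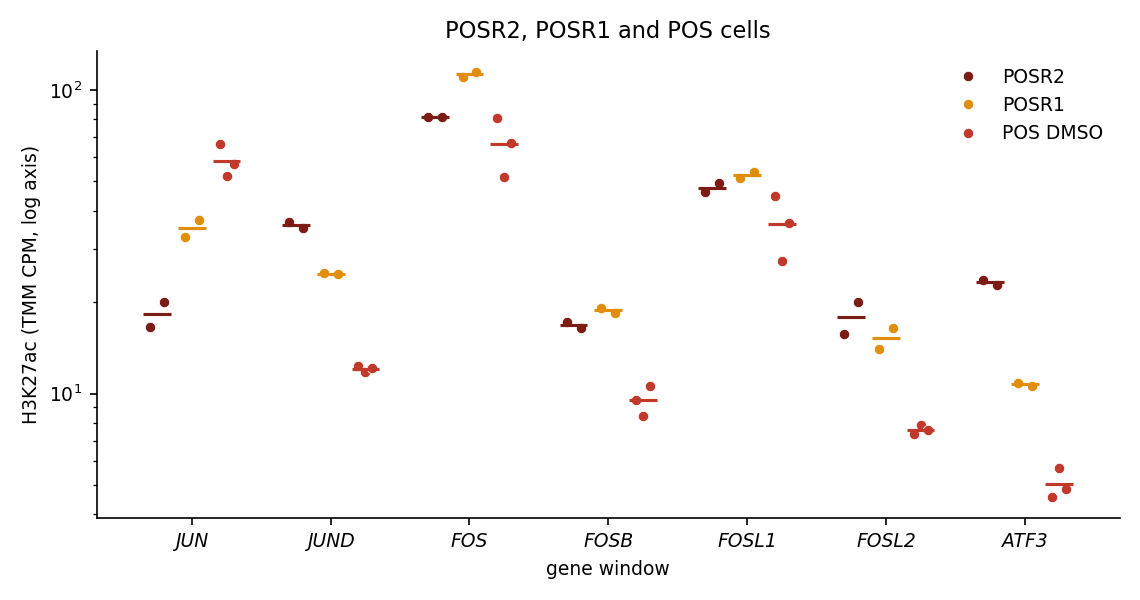
H3K27ac level (TMM-scaled CPM, log axis) in POSR2, POSR1 (2 libraries each) and POS DMSO (3 libraries) at 1 region per window: the called region with the largest change, or the strongest region for FOS and FOSL1, where none was called; points are libraries and bars are means. JUN is lowest, and JUND and ATF3 highest, in POSR2, with POSR1 between POSR2 and POS (ATF3 at 22.9 to 23.7 CPM in POSR2 and 4.58 to 5.69 CPM in POS).

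The authors' deposited tables of their own tests called 17, 19, 5, 13, 4, 17 and 26 of the members (POS against NEG, POS 24 hours, NEG 24 hours, POS day 14, NEG day 14, POSR and JUNB), against 22, 20, 14, 21, 14, 14 and 55 here. All members called in both had the same direction.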

How the data were processed

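The series holds 36 samples: 22 H3K27ac libraries, 4 JUNB libraries and 10 inputs, which were not used. Per the submitters' processing notes, the tools were cutadapt 1.12, STAR 2.5.2b, featureCounts, MACS2 and DESeq2 with hg19. The authors deposited raw counts per region, over regions that are 1001 (H3K27ac) or 201 (JUNB) bases apart from start to end, in one table per comparison. Their deposited comparison tables hold log2 fold changes and p-values with adjusted p-values, used only where named. The files do not state the coordinate base, so positions are printed as deposited. Columns were matched to samples by name. In the 24 hour tables the treated columns carry the code GSK and were matched by subpopulation and replicate number to the titles of the trametinib libraries, the only treated group of that arm.

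Regions touching a window were members. The 8 windows and the comparisons were chosen with earlier results of these data known. Tests were run on whole tables with edgeR 4.0.16 (quasi-likelihood, TMM scaling, filterByExpr with a minimum count of 10, Benjamini-Hochberg adjustment, threshold 0.05) in R 4.3.3. Levels are TMM-scaled CPM. Regions of different tables were matched by 50% reciprocal overlap. Responses of NEG and POS were compared by an interaction term over matched regions. The rule for named regions took, for each window and comparison, the region with the highest level and the called region with the largest change, and their counterparts. Not all of these are given in the text, and other regions named were chosen after their values were seen. Alternatives were DESeq2 1.42.0, other scalings, no filter, a replicate block, matching by any overlap, only regions wholly inside a window, and leaving out each library. The test scripts were tested on simulated data. Marker genes of other cell types and lists of pathway genes were not analysed here, because the region files pair no genes with coordinates and no hg19 annotation was used.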

Additional observations from a re-analysis of the deposited data

Results flagged for a closer look

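At 10 member regions the response to trametinib differed between NEG and POS by the interaction test (edgeR, adjusted over all matched regions). Differences are log2, NEG minus POS, and were not tested for a cause. After 24 hours they were 1.05 at chr14:75760195-75761196 in the FOS window (responses 0.66 in NEG and -0.39 in POS) and 0.64 at chr19:45958954-45959955 in the FOSB window (-0.21 in NEG and -0.85 in POS).

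At day 14 the JUN window differed by 0.92 at chr1:59205022-59206023 (0.01 in NEG and -0.91 in POS), by 0.51 at chr1:59221095-59222096 (-0.57 in NEG and -1.08 in POS) and by 1.57 at chr1:59228380-59229381 (-1.90 in NEG and -3.47 in POS). The FOSB window differed by 1.01 at chr19:45958905-45959906 (0.17 in NEG and -0.84 in POS), by -1.25 at chr19:45972348-45973349 (0.15 in NEG and 1.40 in POS) and by -1.25 at chr19:45981566-45982567 (-0.30 in NEG and 0.95 in POS). The JUND region chr19:18402605-18403606 differed by -0.75 (-0.52 in NEG and 0.22 in POS). The FOS region chr14:75721138-75722139 differed by 0.95 (1.44 in NEG and 0.49 in POS), and this call was lost without NEG day 0 replicate 2 (0.69, adjusted p = 0.067). The POS responses at day 14 carry the shift of 0.51 between fits given above, which is as large as the smallest of these differences. Under total-count scaling the JUND difference was -0.43 (adjusted p = 0.12).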

How the results depend on the processing

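Counts of called members stayed within 1.5 times of the reported count under the other settings, except as follows. DESeq2 called 9 in NEG at 24 hours (3 higher, 6 lower), 8 in NEG at day 14 (5 and 3), 36 JUNB sites (20 and 16), 1 difference between responses at 24 hours and 5 at day 14 (3 and 2). Leaving out single libraries gave 19 to 24 calls for POS against NEG, 18 to 21 for POS at 24 hours, 10 to 14 for NEG at 24 hours, 15 to 21 for POS at day 14, 9 to 13 for NEG at day 14, 10 to 17 for POSR, 7 to 13 between POSR2 and POSR1, 43 to 48 for JUNB, 1 to 3 and 7 to 9 for the differences between responses at 24 hours and day 14, and 9 to 12 for POS against NEG at day 0. Libraries were not paired by replicate number, because no label says that a number marks a shared culture or day. Same-numbered POS libraries correlated at 0.12, 0.38 and -0.02 in their deviations at 24 hours, and differently numbered ones took both signs. With so few libraries this cannot show whether the numbers mark pairs. With the replicate block as a term, POSR had 5 calls (4 higher, 1 lower) and the 24 hour difference 4 (3 and 1). Over 115 named region comparisons, 1159 values kept direction and side of the threshold, 78 lost the call, 29 gained it and 7 reversed. All 7 reversals were of uncalled values: JUND chr19:18390320-18391321 in POS at 24 hours was -0.017 without POS DMSO replicate 2, up to 0.28 without replicate 1; FOS chr14:75721138-75722139 in POS at day 14 was 0.0018 with the replicate block, 0.035 without day 14 replicate 1 and 0.20 without day 0 replicate 1, down to -0.20 without day 0 replicate 2; FOSL1 chr11:65640921-65641922 in NEG at day 14 was 0.011 without day 14 replicate 2, down to -0.13 without replicate 1. The remaining reversals were differences between responses, 0.11 for FOSL2 chr2:28589117-28590118 at 24 hours without NEG DMSO replicate 1 (-0.28 without replicate 2) and 0.22 for JUN chr1:59281310-59282311 at day 14 with total counts. The cause of these changes was not tested. With 2 libraries in most groups, small differences at low levels are not detectable at this depth.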
